A study of Mus musculus with 36 samples.

Results

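Genes of the cytosolic ribosomal proteins were described in mouse liver, in animals on normal chow and on a high fat diet, over 6 times of day. The set holds every measured gene whose symbol starts with Rpl or Rps and a digit, or with Rplp, together with Rpsa. Rps6k kinase genes, Rps19bp1 and symbols of pseudogenes were left out. It came to 62 genes of 19938 that the array measures with a probe set of their own, 38 of the large and 24 of the small subunit. Of these, 60 were bright enough to be tested. Rpl3l and Rpl39l, paralogs that the annotation lists beside Rpl3 and Rpl39, lay below the intensity filter. A further 20 symbols of the rule, among them Rpl3, Rpl11, Rpl13a, Rpl32, Rps16 and Rps24, are read by probe sets that name several genes and were not used here. The 62 include 8 paralogs or retrogenes of ribosomal protein genes (Rpl3l, Rpl7l1, Rpl10l, Rpl32l, Rpl39l, Rps4l, Rps23rg1 and Rps27l). Of their parent genes, Rpl7, Rpl10 and Rps4x are members and the others are not analysed here. RefSeq classes Rps4l as a transcribed pseudogene, but its symbol meets the rule.

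Each cytosolic ribosome is built from 1 copy of nearly every ribosomal protein around the ribosomal RNAs, and the proteins are made in step with each other. Their mRNAs typically begin with a C followed by an unbroken stretch of C and T, the terminal oligopyrimidine (TOP) motif, through which the kinase complex mTORC1 and the RNA-binding protein LARP1 control their translation according to nutrients. In liver, feeding is known to favour translation of these mRNAs, and an array measures how much of an mRNA there is, not how much of it is translated.

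The mice were C57BL/6J, an inbred strain, aged 16 weeks at harvest and kept under 12 h of light with free access to food. The control groups ate normal chow and the other groups ate a diet with 60% of its calories from fat for 10 weeks. Livers were taken every 4 h from ZT0 to ZT20, ZT (Zeitgeber time) being the hours since lights on. This gave 12 groups by diet and time with 3 samples in each, and 1 whole-transcript Affymetrix array per sample. No group carried a transgene or a drug, and the labels used here do not give the sex. Whether the 3 samples of a group are separate animals is not spelled out, and the p-values cover only the spread seen between them, which may be technical.

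All values below are log2(intensity + 16) of a gene's brightest probe set, so a difference is slightly compressed for dim genes. Levels of different members come from different probes and are not compared with each other as amounts of mRNA. Array medians of intensity lay between 75.7 and 95.6, and arrays of a group correlated at 0.976 to 0.993 over genes. All 13 measured core clock genes were rhythmic on both diets. The hepatocyte genes Alb, Apoa1 and Apob were bright, at mean log2 intensities of 13.55, 13.44 and 12.89 on chow. In whole liver, fewer cells of a type and less RNA per cell cannot be told apart.

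The start sites of a few members are shown because these mRNAs are known by the pyrimidine run there, beside those of 4 paralogs. The sequences are those of RefSeq on mouse build GRCm38.p6, read along the gene's own strand from 30 bases before to 20 bases from the annotated start. Capitals mark the longest unbroken run of 5 or more C and T that reaches within 20 bases of the start, and the first where runs tie. The start is base 31. Rps18 (chr17:33955646-33955695, minus strand), Rpl7a (chr2:26910777-26910826, plus strand), Rpl28 (chr7:4792935-4792984, plus strand), Rps6 (chr4:86857348-86857397, minus strand) and Rpsa (chr9:120127736-120127785, plus strand) are members of the core ribosome. Rpl7l1 (chr17:46782637-46782686, minus strand), Rpl10l (chr12:66284382-66284431, minus strand), Rps27l (chr9:66946056-66946105, plus strand, 1 of 2 starts in the table) and Rps23rg1 (chr8:3567968-3568017, plus strand) are paralogs or retrogenes.
Rps18: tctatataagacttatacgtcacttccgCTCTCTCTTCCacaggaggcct
Rpl7a: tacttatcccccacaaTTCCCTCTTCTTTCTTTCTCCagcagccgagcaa
Rpl28: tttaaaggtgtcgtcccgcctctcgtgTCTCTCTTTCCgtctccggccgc
Rps6: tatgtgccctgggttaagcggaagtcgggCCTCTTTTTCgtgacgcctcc
Rpsa: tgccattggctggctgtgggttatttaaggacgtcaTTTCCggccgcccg
Rpl7l1: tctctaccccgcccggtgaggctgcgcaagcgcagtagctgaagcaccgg
Rpl10l: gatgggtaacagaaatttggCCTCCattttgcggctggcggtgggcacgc
Rps27l: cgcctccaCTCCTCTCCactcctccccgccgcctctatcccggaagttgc
Rps23rg1: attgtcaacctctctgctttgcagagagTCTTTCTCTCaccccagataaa

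In Rps18, Rpl28 and Rps6 a run of 10 or 11 pyrimidines spans the start, in Rpl7a a run of 21 does, while the run of Rpsa begins after its annotated start. Among the paralogs, Rpl7l1 has no run of 5 that reaches within 20 bases of the start. The marked runs of Rpl10l, of 5, and of Rps27l, of 9, end before the start. In Rps27l an unmarked run of the same length follows, also before the start. A run of 10 spans the start of Rps23rg1. The RefSeq table held promoters of 50 of the 62 members, 48 of them tested. A run of 8 or more C and T between 20 bases before and 30 bases after the start was present in 24 of the 48 (50% of them) and in 21.5% of all 27025 genes in the table. In the whole 300 bases, on either strand, CCGGAAG (a core bound by GABP) was present in 37.5% of the 48 and 9.93% of all genes, AAGATGGC (bound by YY1) in 6.25% and 3.19%, and TATAAA in 12.5% and 15.7%. On the opposite strand CCGGAAG reads CTTCCGG, which begins with a short pyrimidine stretch, so it can overlap a run. TGACGTCA was present in 8.33% and 2.03%, and CACGTG, a site bound by clock factors and MYC, in 10.4% and 8.09%. These are matches of letters and no measure of binding.

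The first comparison asked whether the diet changed these genes over the day as a whole. Ribosomal protein mRNAs were lower on high fat diet across both subunits. Of the 60 tested members, 45 fell and 0 rose on high fat diet in the average over the 6 times (limma, Benjamini-Hochberg adjusted p under 0.05 over all 13956 tested genes). Of all tested genes 9.80% fell and 11.2% rose. The median difference of the members was -0.19 on the log2 scale, beside 0.02 for all tested genes. The 45 called members fell by 0.09 to 0.38, with a median of 0.21, which is a drop of 13.4% in intensity plus 16. The estimate was below 0 for 58 of 60 members, the exceptions being Rps27l at 0.01 and Rpl10l at 0.22. It was below 0 at every one of the 6 times for 33 of 60 members, against 6.64% of all tested genes. The changes are small, and the standard errors of the members ran from 0.03 to 0.13 with a median of 0.05.

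**Figure D1:**
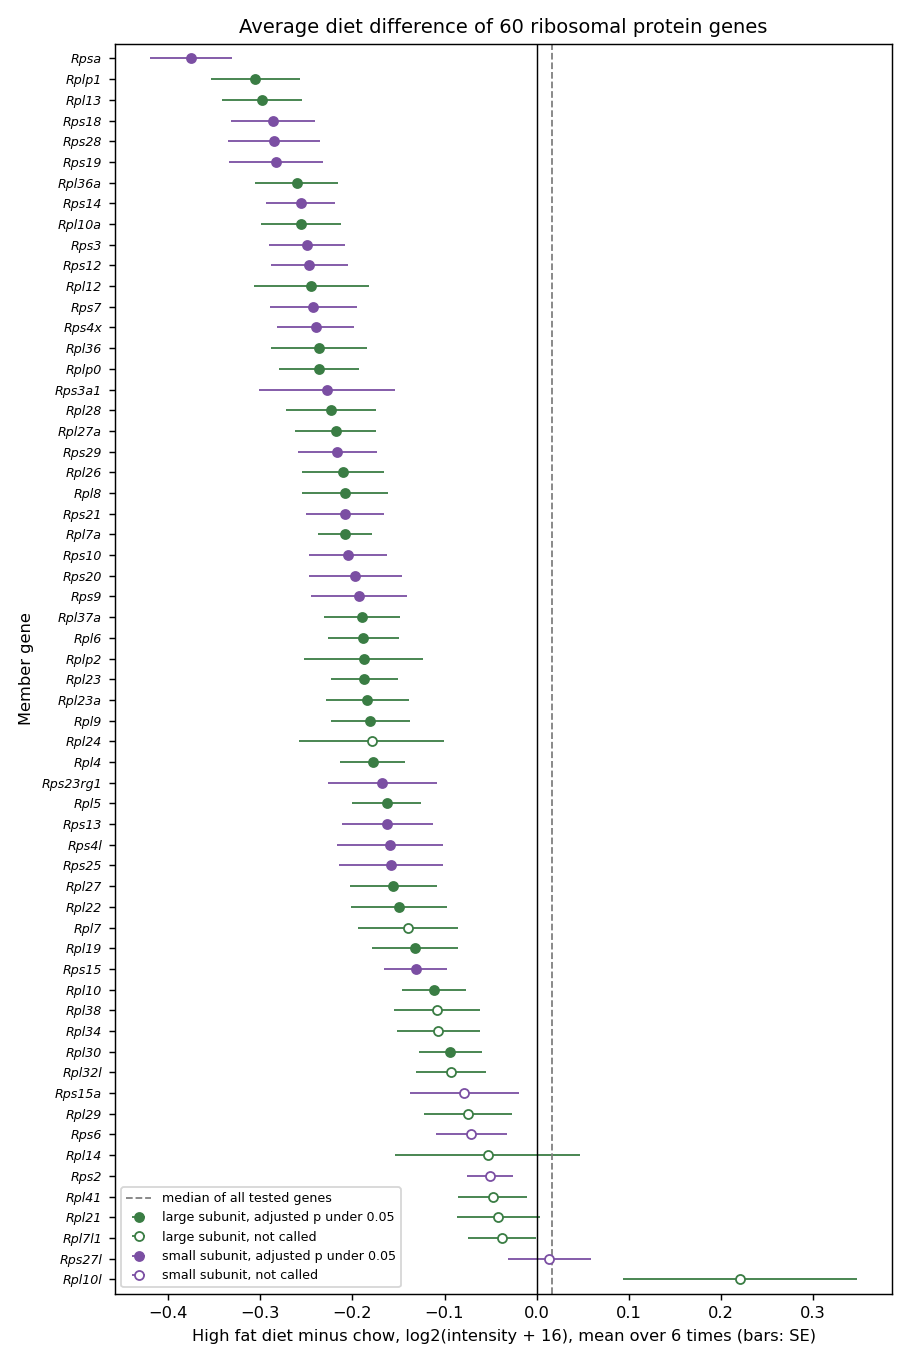
Average difference between the diets for each of the 60 tested members (x axis, high fat diet minus chow, log2; bars are the standard error of the fit), in order of size, with large subunit members in green, small subunit members in purple and open symbols for members not called. The members run from -0.38 for Rpsa to 0.22 for Rpl10l, and 58 of 60 lie left of 0.

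Among small subunit members 20 of 24 fell. Rpsa, the small subunit protein also known as a laminin receptor precursor, had the largest difference. On chow its lowest, median and highest values over 18 arrays were 10.13, 10.41 and 10.78, and on high fat diet 9.80, 10.03 and 10.51. In 13 of the 18 high fat diet arrays Rpsa lay below every chow array. At 5 of 6 times the 3 samples on high fat diet lay below the 3 on chow, the exception being ZT8. The average difference was -0.38 ± 0.04 (SE; adjusted p = 1.82e-07), a drop of 22.9%.

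Rps14, whose loss in human marrow is linked to the 5q- syndrome, ran from 9.94 to 10.48 on chow (median 10.15) and from 9.57 to 10.17 on high fat diet (median 9.90). Its groups were apart at the same 5 times as those of Rpsa, and its difference was -0.26 ± 0.04 (SE; adjusted p = 7.57e-06). Rps18, a protein of the small subunit's head, ran from 11.36 to 11.78 on chow (median 11.53) and from 10.87 to 11.64 on high fat diet (median 11.22). It lay below every chow array in 13 of 18 high fat diet arrays, and differed by -0.29 ± 0.05 (SE; adjusted p = 2.35e-05). Rps3, which lines the channel where mRNA enters and also serves in DNA repair, lay below every chow array in 14 of 18 high fat diet arrays. Rps3 differed by -0.25 ± 0.04 (SE; adjusted p = 4.41e-05). Rps28 and Rps19, the latter a gene mutated in Diamond-Blackfan anaemia, fell by 0.29 and 0.28. Rps6, the small subunit protein phosphorylated by S6 kinase downstream of mTORC1, was among the 4 small subunit members that were not called. It ran from 12.50 to 12.85 on chow and from 12.34 to 12.72 on high fat diet, with overlapping diets at 5 of 6 times. Its difference was -0.07 ± 0.04 (SE; adjusted p = 0.215). Rps2, Rps15a and Rps27l were the others, at -0.05, -0.08 and 0.01. Rps6 and Rps2 are, with Rpl10 and Rpl21, the 4 members with a mean log2 value above 12. Of these 4, 1 fell and the median was -0.06, against 44 of 56 and -0.19 for the other members. The cut at 12 was not planned. The brightest members under it, Rps15, Rplp1 and Rplp0, fell by 0.13, 0.31 and 0.24. Over all 60 tested members mean level and difference correlated at 0.12 (Pearson), and at 0.21 without the paralogs. The part of brightness in these differences was not tested.

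Among large subunit members 25 of 36 fell. Rpl7a had the smallest p of these. It ran from 10.79 to 11.11 on chow (median 10.94) and from 10.59 to 10.87 on high fat diet (median 10.73). All 18 high fat diet values of Rpl7a lay below the chow median, and its groups were apart at 5 of 6 times. The difference was -0.21 ± 0.03 (SE; adjusted p = 3.64e-06). Rpl13 ran from 9.33 to 9.82 on chow (median 9.47) and from 8.85 to 9.56 on high fat diet (median 9.16), and lay below every chow array in 14 of 18 high fat diet arrays. Its difference was -0.30 ± 0.04 (SE; adjusted p = 6.72e-06). At ZT8 Rpl13 had the same mean on both diets, 9.40.

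The P stalk of the large subunit, built from Rplp0 and pairs of Rplp1 and Rplp2, recruits elongation factors. All 3 of its genes fell. Rplp1 ran from 11.87 to 12.40 on chow (median 12.11) and from 11.38 to 12.16 on high fat diet (median 11.77), and differed by -0.31 ± 0.05 (SE; adjusted p = 2.14e-05). Rplp0, often used as a reference gene in quantitative PCR, fell by 0.24 ± 0.04 (SE; adjusted p = 0.000140), from a median of 12.04 on chow to 11.83. Rplp2 fell by 0.19 ± 0.06 (SE; adjusted p = 0.0372), with values from 8.01 to 8.53 on chow and from 7.32 to 8.50 on high fat diet. The diets overlapped more for Rplp2, at 5 of 6 times, and its call was lost in 16 of 49 alternative analyses.

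Rpl5, which with Rpl11 and 5S RNA binds MDM2 and so activates p53, fell by 0.16 ± 0.04 (SE; adjusted p = 0.00189). Its values ran from 10.90 to 11.32 on chow and from 10.66 to 11.24 on high fat diet, and 17 of 18 high fat diet arrays lay below the chow median. Rpl11 is not analysed here. Rpl23, another protein that binds MDM2, fell by 0.19 ± 0.04 (SE; adjusted p = 0.000272), with 14 of 18 high fat diet arrays below every chow array. Rpl26, which sits near the peptide exit and binds p53 mRNA, fell by 0.21 ± 0.04 (SE; adjusted p = 0.000681). The uncalled large subunit members were Rpl24, Rpl7, Rpl38, Rpl34, Rpl32l, Rpl29, Rpl14, Rpl41, Rpl21, Rpl7l1 and Rpl10l, and apart from Rpl10l their differences lay between -0.18 (Rpl24) and -0.04 (Rpl7l1).

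Paralogs were set beside their parent genes. Of the 6 tested paralogs, 2 fell, Rps4l and Rps23rg1, and of the 54 other members 43 fell. Rpl7 and Rpl7l1 differed between diets by -0.14 ± 0.05 and -0.04 ± 0.04 (SE), and neither was called. Rpl10, a late-joining large subunit protein, fell by 0.11 ± 0.03 (SE; adjusted p = 0.0205), while its retrogene Rpl10l stood at 0.22 ± 0.13 (SE; adjusted p = 0.238). Rps4x fell by 0.24 ± 0.04 and Rps4l, the transcribed pseudogene, by 0.16 ± 0.06 (SE; adjusted p = 7.26e-05 and 0.0478). Rpl22, which belongs to a pair with Rpl22l1, fell by 0.15 ± 0.05 (SE; adjusted p = 0.0386), and Rpl36a, of the pair with Rpl36al, by 0.26 ± 0.05 (SE; adjusted p = 7.31e-05). The second gene of each of those pairs is not analysed here. The difference between a paralog and its parent was not tested. Rpl3l and Rpl39l stayed dim, at 5.13 to 5.66 and 5.27 to 6.27 on chow.

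Rps27l, a gene induced by p53, was the member with the smallest average difference. It ran from 10.83 to 11.46 on chow (median 11.29) and from 11.03 to 11.50 on high fat diet (median 11.30), and the diets overlapped at all 6 times. Its difference was 0.01 ± 0.04 (SE; adjusted p = 0.868). Rpl10l had its largest differences at ZT4, with chow values of 9.94, 7.77 and 9.69 against 10.29, 10.01 and 9.96 on high fat diet. The value of 7.77 comes from chow ZT4 replicate 2, the array with the lowest estimated quality weight, 0.265. The main fit used no weights, so that array counted in full. Without that array the average difference of Rpl10l was 0.11 in place of 0.22 (adjusted p = 0.379) and its ZT4 difference was 0.27 in place of 0.95 (adjusted p = 0.694). Its ZT0 difference of 0.68, with an adjusted p of 0.182 in the full fit, was then called higher (adjusted p = 0.0254).

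Members with and without a pyrimidine run near the start were about equally low. Of the 24 with a run of 8 or more, 17 fell, with a median difference of -0.18, and of the 24 without, 19 fell, with a median of -0.19.

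The comparison over whole arrays shows how the set moved together. For each array the median of the members' deviations from their own mean was taken. It was 0.10 ± 0.07 (SD, n = 18) on chow and -0.08 ± 0.10 (SD, n = 18) on high fat diet. The chow arrays ran from -0.0005 to 0.22 with a median of 0.11, and the high fat diet arrays from -0.25 to 0.17 with a median of -0.10. In 15 of the 18 high fat diet arrays the value lay below every chow array. The other 3 were ZT8 replicates 1 and 2 and ZT20 replicate 2. No single member had all 18 high fat diet arrays below all 18 chow arrays, and 10 of all 13956 genes were apart in that direction. Genes apart in the other direction were not counted.

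**Figure D2:**
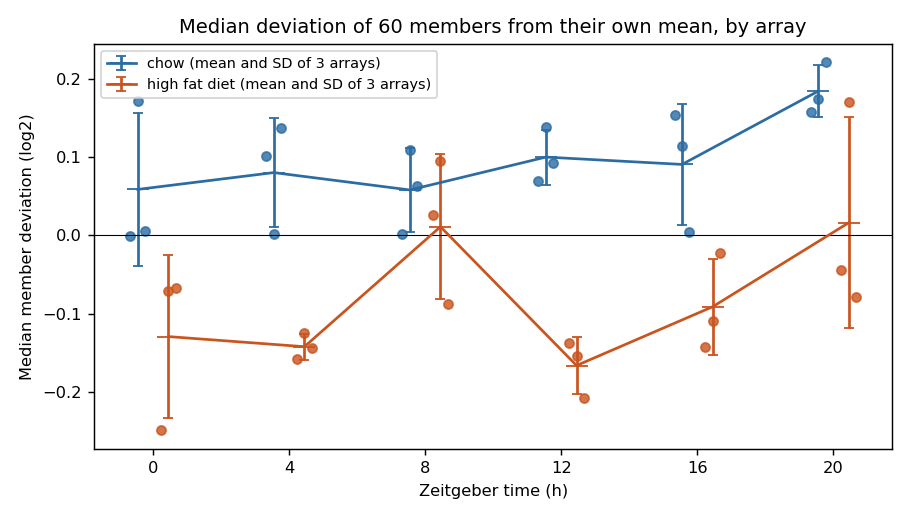
Median deviation of the 60 members from their own mean over all arrays (y axis, log2) by Zeitgeber time (x axis, hours), 1 point per array, with the mean and SD of the 3 arrays of each group. High fat diet arrays lie below chow at ZT0, ZT4, ZT12 and ZT16, and the diets overlap at ZT8 and ZT20.

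Within groups, members varied together too. After the group means were removed, the mean correlation between 2 members was 0.29 over the 1770 pairs, against 0.03 for pairs of all tested genes, and 85.7% of the pairs were positive. These correlations share the arrays and 24 residual degrees of freedom, so they are given with no test. Since members move together from array to array, their 45 calls are not 45 separate results. The summed intensity of the brightest probe sets ran from 114905 to 131980 on chow (median 124022) and from 101788 to 127475 on high fat diet (median 108813).

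By time of day the members' median difference was below 0 at every time, and members were called at some of the times only. At ZT0 10 of 60 members fell, at ZT4 6, at ZT8 0, at ZT12 8, at ZT16 2 and at ZT20 0, and 0 rose at any time (limma, 3 samples against 3). Of all tested genes 3.75%, 1.40%, 0.494%, 2.97%, 1.18% and 0.803% fell at these times, and 3.37%, 2.29%, 0.279%, 2.47%, 1.05% and 1.24% rose. The medians of the members were -0.22, -0.22, -0.05, -0.27, -0.16 and -0.18 in the order of times, beside medians between 0.00 and 0.03 for all genes.

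Rplp1 and Rps18 had the smallest adjusted p at ZT0. Rplp1 measured 12.14, 12.18 and 12.15 on chow and 11.38, 11.71 and 11.64 on high fat diet there, a difference of -0.58 ± 0.12 (SE; limma adjusted p = 0.00397). At ZT4 Rpl26 measured 9.56, 9.44 and 9.60 against 8.84, 9.08 and 9.05, a difference of -0.54 ± 0.11 (SE; limma adjusted p = 0.00236). Rps19 measured 8.88, 9.15 and 8.96 against 8.40, 8.33 and 8.48 at that time, a difference of -0.59 ± 0.13 (SE; limma adjusted p = 0.00421). In all 3 cases the groups did not overlap. At ZT12 Rpsa measured 10.45, 10.57 and 10.38 against 10.06, 9.97 and 9.83, a difference of -0.51 ± 0.11 (SE; limma adjusted p = 0.00390). Rpsa was called at 4 times, ZT0, ZT4, ZT12 and ZT16, more often than any other member, and Rpl7a was the other member called at ZT16.

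Complete separation of the 3 high fat diet samples below the 3 chow samples was counted as well. It held for 22 members at ZT0, 33 at ZT4, 3 at ZT8, 42 at ZT12, 23 at ZT16 and 15 at ZT20. Among all tested genes it held for 11.5%, 9.95%, 7.39%, 13.0%, 8.32% and 6.52%. Separation the other way was seen for 1 member each at ZT0, ZT4 and ZT12 and for 0 at the other times, and among all tested genes for 14.9%, 11.6%, 7.08%, 11.7%, 9.64% and 8.99% in the order of times.

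**Figure D3:**
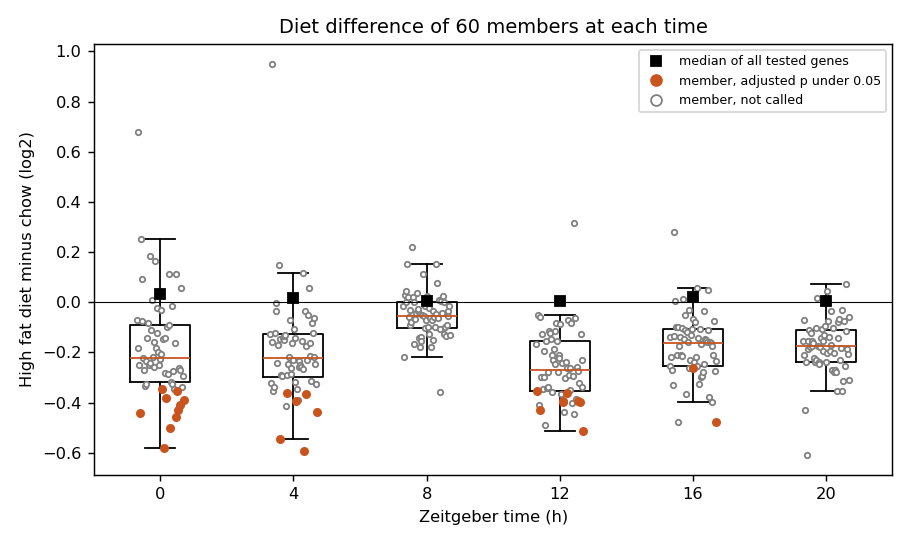
Difference between the diets (y axis, high fat diet minus chow, log2) of the 60 members at each Zeitgeber time (x axis, hours), with filled points for called members, boxes for the members' quartiles (whiskers reach the last point within 1.5 box lengths) and black squares for the median of all tested genes. The members' medians are -0.22, -0.22, -0.05, -0.27, -0.16 and -0.18, with the smallest shift at ZT8.

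At ZT8 the set was close between diets. The SD of the array medians on high fat diet was 0.09 there, within the range of 0.02 to 0.13 over the 6 high fat diet groups. Rpsa measured 10.22, 10.35 and 10.31 on chow and 10.30, 10.33 and 9.86 on high fat diet. Rps18 measured 11.41, 11.42 and 11.54 against 11.48, 11.64 and 11.10. In both genes replicate 3 on high fat diet was low and the other two lay within or above the chow range. The contrast of the ZT8 difference against the mean of the other 5 was chosen after the values were seen. It had 0 of 60 members called, against 0.0931% of all tested genes (limma). An unadjusted p under 0.05 was found for 13 of 60 members and for 10.8% of all tested genes. The contrast was above 0 for 54 of 60 members, with a median of 0.15. In the F test of diet by time over all 6 times 0 of 60 members were called, against 0.631% of all genes, and 4 had an unadjusted p under 0.05, against 13.4% of all genes. Rps19, Rps23rg1 and Rpl26 had the smallest p in that test (adjusted p = 0.296, 0.304 and 0.304). So in the main fit no member passed a test that its diet difference changed between times. Without ZT8 the average over the other 5 times gave 44 lower members.

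The counts at single times rested on few arrays. At ZT0 10 became 1 without high fat diet replicate 1, 3 without chow replicate 2, and 6 without chow replicate 3 or without high fat diet replicate 2. At ZT4 6 became 2 without high fat diet replicate 1, and 3 without high fat diet replicate 3 or chow replicate 3. At ZT12 8 became 1 without chow replicate 2, 2 without chow replicate 1, 4 without high fat diet replicate 3 and 5 without high fat diet replicate 2. It became 14 without high fat diet ZT8 replicate 3. The count for the average over times stayed between 38 and 46 when any 1 array was left out.

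Many members are read by several probe sets. The 62 members had 218 probe sets, up to 14 for Rps12, and 12 of them repeated another's values exactly. Ribosomal protein genes are known to have many processed pseudogenes, and probe sets may in part read near-identical copies, so which copy gave the signal is uncertain. Tested on their own, 164 of 204 distinct probe sets of members fell and 0 rose, with 202 of 204 below 0, and 10.4% of all 15252 probe sets fell. Of the 38 members with several distinct probe sets, 26 fell on all of them, 10 on some and 2, Rps2 and Rps6, on none. Members with 1 probe set fell in 13 of 21 cases and members with several in 32 of 39.

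Most members gave much the same difference on each probe set. All 5 probe sets of Rpsa and all 9 of Rpl13 fell. Rpl24 was not called by its brightest probe set (-0.18) but both others fell, by 0.23 and 0.24. For Rps21 the brightest probe set fell by 0.21, and a second, dim probe set with a mean of 7.42 stood at -0.05 (adjusted p = 0.765). Rpl21 had 2 probe sets that fell, by 0.11 each, while its brightest stood at -0.04.

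**Figure D4:**
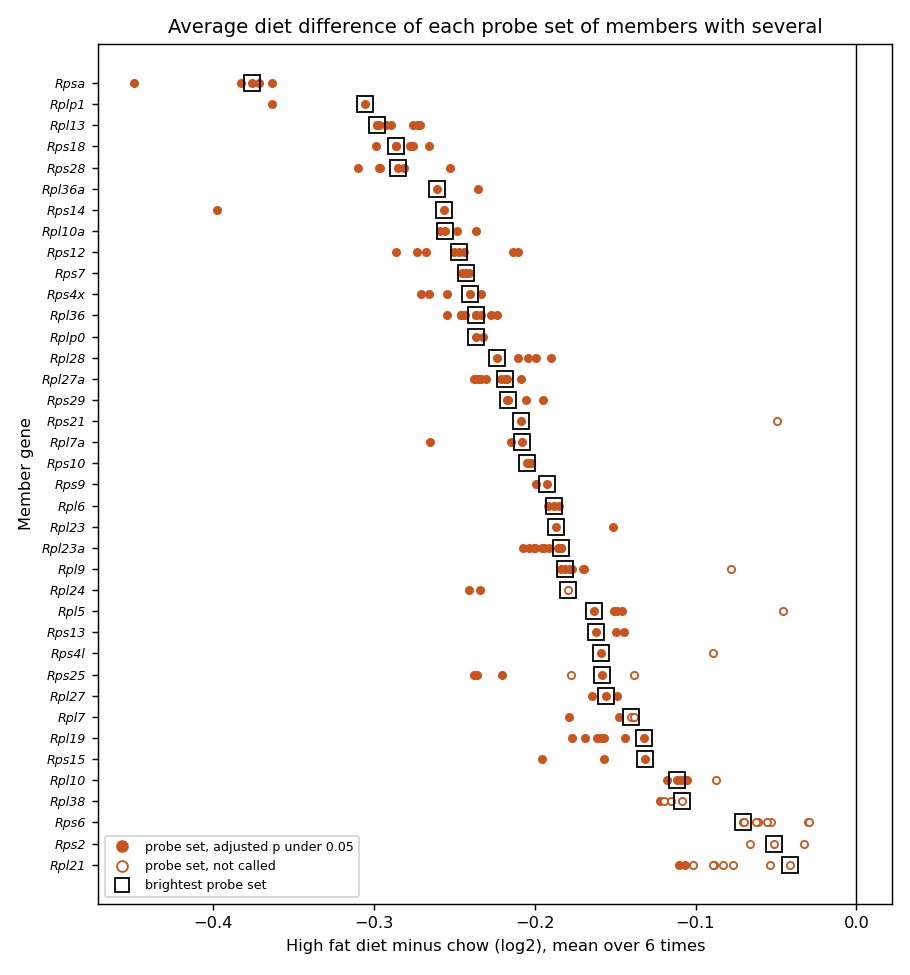
Average difference between the diets (x axis, high fat diet minus chow, log2) of each distinct probe set, for the 38 members with several, filled where the adjusted p is under 0.05, with a square around the brightest. For Rps21 the second probe set stands at -0.05, away from the brightest at -0.21, and for Rpl13 all 9 lie together.

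The time course asked whether these mRNAs followed the time of day. Few members were called. A 24 h wave was called on chow for 3 of 60 members, Rps23rg1, Rps15a and Rpl24, and on high fat diet for 1, Rps23rg1 (limma F test). Of all tested genes 20.6% were called on chow and 11.0% on high fat diet. The median fitted amplitude of the members, from mean to peak, was 0.07 on chow and 0.05 on high fat diet, beside 0.09 and 0.08 for all tested genes. On simulated data the fit recovered 4% of 50 genes with an amplitude of 0.1 on chow. The simulation changed far fewer genes than were called in these data, which makes the adjustment stricter. The share recovered in these data may therefore be higher and is not known. A lack of calls does not by itself show a lack of rhythm. A wave is not the only shape tested, and differences among the 6 time means were called for 4 members on chow and 7 on high fat diet, against 21.0% and 16.8% of all genes.

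Rps23rg1, a retrogene copied from Rps23, had the clearest wave. On chow it was highest at ZT4, with values of 8.03, 7.86 and 8.02, and lowest at ZT12, with 7.03, 6.96 and 7.14. On high fat diet it measured 7.82, 7.65 and 7.75 at ZT4 and 7.31, 7.20 and 7.57 at ZT12. The drop from ZT4 to ZT12 was larger on chow than on high fat diet in these samples. The fitted amplitude was 0.42 with a peak at ZT 2.09 on chow (adjusted p = 2.20e-05) and 0.22 with a peak at ZT 3.13 on high fat diet (adjusted p = 0.0465). The difference between the waves was not called (adjusted p = 0.616). RefSeq places it beside Camsap3, over the pseudogene Rps23-ps2, so its probes may read more than 1 transcript.

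Rps15a and Rpl24 were higher in the dark phase on chow. Rps15a had group means of 9.57, 9.72, 9.82, 10.03, 10.01 and 10.19 from ZT0 to ZT20, an amplitude of 0.24 with a peak at ZT 15.6 (adjusted p = 0.0266). On high fat diet its means ran between 9.69 and 9.98 and no wave was called (adjusted p = 0.900). Rpl24, a protein of the bridge between the subunits, had an amplitude of 0.33 on chow with a peak at ZT 16.9 (adjusted p = 0.0358), and 0.03 on high fat diet (adjusted p = 0.979). The difference between the waves was called for 0 of 60 members and for 0.0287% of all tested genes. An unadjusted p under 0.05 was found for 2 members, Rpl10l and Rps15a, and for 8.32% of all tested genes. The count on chow became 1 without chow ZT4 replicate 2, 5 without chow ZT0 replicate 3 and 6 without chow ZT4 replicate 1. On high fat diet the call of Rps23rg1 was lost in 26 of 49 alternatives.

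**Figure D5:**
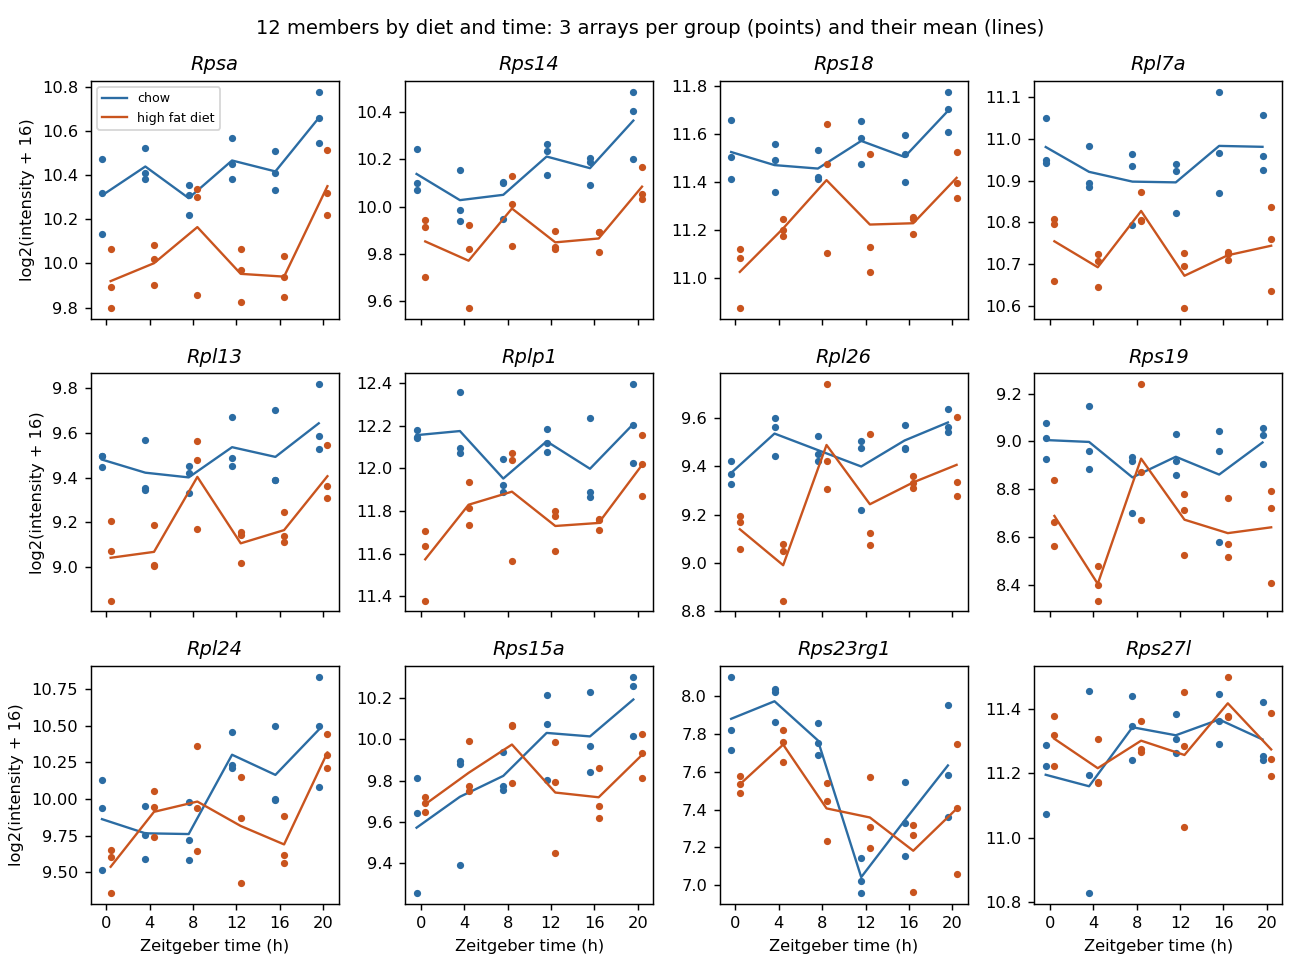
Values of 12 members (y axes, log2(intensity + 16), each with its own range) by Zeitgeber time (x axes, hours) on chow (blue) and high fat diet (orange), with points for the 3 arrays of a group and lines through their means. The lines lie apart at most times for Rpsa, Rps14, Rps18, Rpl7a, Rpl13 and Rplp1, cross for Rps23rg1, Rpl24 and Rps15a, and overlap for Rps27l.

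Other genes that make and use ribosomes were counted beside the members. Of all tested genes 9.80% fell and 11.2% rose in the same average. Of 77 mitochondrial ribosomal proteins, which belong to a separate ribosome, 7 fell and 3 rose, with a median of -0.02. The share that fell was near that of all tested genes. Of 19 measured translation factors and partners that share the TOP motif 6 fell and 0 rose, with a median of -0.05. They include the elongation factor subunit Eef1b2 (-0.25 ± 0.04, SE), the snoRNA host gene Gas5 (-0.34 ± 0.06) and Fau (-0.16 ± 0.04), which encodes the small subunit protein RPS30 fused to a ubiquitin-like protein. Eef2 and Eef1a1, which drive elongation, fell by 0.16 and 0.09. Of 20 initiation factors 4 fell and 0 rose, namely Eif3i, Eif3d, Eif4a1 and Eif3a, with a median of -0.07 for the list.

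Of 22 genes of RNA polymerase I and ribosome transcription control, 9 fell and 2 rose, beside 9.80% and 11.2% of all tested genes. Rrn3, the factor that recruits polymerase I, fell by 0.27 ± 0.05 (SE; adjusted p = 0.000137), its subunit gene Polr1b by 0.21 ± 0.04 (SE; adjusted p = 0.000168), and Mycn rose by 0.36 ± 0.06 (SE; adjusted p = 1.56e-05). Myc, a driver of ribosome production, fell by 1.06 ± 0.23 (SE; adjusted p = 0.000907) and has the largest difference in that list. Of 23 chaperones and import or assembly factors of ribosomal proteins 4 fell and 0 rose, Nob1, Mdn1, Grwd1 and Rrs1. In mTORC1 signalling 2 of 22 genes fell and 3 rose, near the shares of all tested genes. Eif4ebp1, the inhibitor of cap-dependent initiation that mTORC1 releases, fell by 0.23 ± 0.04 (SE; adjusted p = 0.000117). Larp1, which binds TOP mRNAs, fell by 0.12 ± 0.03 (SE; adjusted p = 0.000857), and Sesn3, which restrains mTORC1, rose by 0.23 ± 0.04 (SE; adjusted p = 0.000235).

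Some markers of liver cell types differed between the diets too, beside 9.80% of all tested genes that fell and 11.2% that rose. Of 8 Kupffer cell and macrophage genes 7 rose and 0 fell, with a median of 0.39, and their summed intensity ran from 1710 to 4403 on chow and from 2679 to 6164 on high fat diet. Of 8 stellate cell genes 3 rose, of 7 tested T, NK and B cell genes 3 rose, and of 3 tested adipose genes 2 rose, Cidec and Fabp4. Of 7 hepatocyte genes 3 fell and 0 rose, namely Cps1, Tat and Hnf4a, with a median of -0.002, and the sum ran from 55583 to 65118 on chow and from 55365 to 63106 on high fat diet. Of 8 endothelial genes 1 fell, near the share of all tested genes, and 0 rose. Of 3 tested pancreas genes 1 rose, and no bile duct, muscle, neutrophil or red blood cell gene was called among the 10 tested. The part of these markers in the members' difference was not tested.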

How the data were processed

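The deposited table holds linear intensities of 35556 probe sets on 36 arrays, which the authors made with Affymetrix Expression Console 1.1.1 and PLIER 2.0, per the submitters' processing notes. How arrays were normalized against each other is not given in the sources used here. Gene names came from the platform annotation, and only probe sets with 1 gene (21789) were used, the brightest per gene. Genes above the 30th percentile, a log2 value of 6.11, were tested (13956 of 19938). Values were log2(intensity + 16), with no further scaling. A log2 difference understates the change of dim genes.

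Diet effects came from limma 3.58.1 in R 4.3.3, with 1 mean per group and 24 residual degrees of freedom. Rhythm came from a second fit with a 24 h wave per diet. P-values were adjusted over all tested genes by Benjamini-Hochberg at 0.05. The number of arrays limits the precision. On simulated data the fit recovered 12% of 50 genes with an average diet change of 0.1, 74% at 0.2 and 96% at 0.3. For a wave on chow it recovered 4% at an amplitude of 0.1 and 56% at 0.2. The simulation changed far fewer genes than were called in these data, so these shares may understate what the fit recovers here.

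Members and gene lists were chosen with earlier results of these data known. Every member could be named with its average difference. Values by group were given for the 3 members of each subunit with the smallest p, for the 3 with the smallest p in the other tests, for members of known role and for paralog pairs. Of other lists, the 3 called genes with the smallest p were named, and Myc, Eef2, Eef1a1, Eif4a1, Eif3a, Rrs1 and the marker genes were named after their values were seen. Alternatives covered scaling, filter, offset, probe set rule, replicate block, array weights, variance prior, threshold and leaving out each array. A fit without ZT8, a fit without the 4 arrays of lowest weight, the contrasts of 1 time against the other 5 and the tests of single probe sets were added after the values were seen.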

Additional observations from a re-analysis of the deposited data

Results flagged for a closer look

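Rps23rg1 was picked out because all samples moved one way at one time and the opposite way at others. At ZT12 its 3 high fat diet samples (7.31, 7.20 and 7.57) lay above the 3 chow samples (7.03, 6.96 and 7.14), a difference of 0.31 on the log2 scale. At ZT0, ZT4 and ZT8 all 3 lay below chow, with differences of -0.35, -0.23 and -0.36. Among all tested genes, separation above chow at ZT12 held for 11.7%. Separation below chow at ZT0, ZT4 and ZT8 held for 11.5%, 9.95% and 7.39%. How many of all genes combined both directions was not counted. None of these differences at single times passed the threshold, and the diet by time test over all 6 times gave an adjusted p of 0.304 (limma), so the change of direction is a description. Its average difference of -0.17 ± 0.06 (SE; adjusted p = 0.0411) lost its call in 19 of 49 alternatives.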

How the results depend on the processing

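The count of members lower on high fat diet in the average over times was 34 to 51 under 51 alternatives, against 45, and 0 members rose under any of them. Of the 45 called members 33 kept their call under the 49 alternatives fitted for single members, and Rpl30 and Rps4l lost it most often, in 29 of 49 each. Rpl19, Rpl22 and Rps25 lost it in 23, 22 and 25. Of the uncalled members 7 were called under at least 1 alternative. Leaving out 1 array moved the count between 38 and 46 and the median between -0.20 and -0.17.

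Counts at single times were less steady. Leaving out 1 array gave 1 to 15 lower members at ZT0, 2 to 8 at ZT4, 1 to 14 at ZT12 and 0 to 2 at ZT16, with 0 to 1 higher at ZT0 and at ZT4. Rhythm calls ranged from 1 to 6 on chow and from 0 to 1 on high fat diet. Quantile normalization gave 5 lower members at ZT16, 1 at ZT20, 5 rhythmic on chow and 0 on high fat diet. Median centring gave 20 at ZT0, 13 at ZT12, 1 at ZT16 and 0 rhythmic on high fat diet. It moved the split over all genes from 1367 lower and 1570 higher to 1930 and 987, with the members' median at -0.22 and that of all genes at -0.02. Cyclic loess gave 10 at ZT4, 4 at ZT16, 1 at ZT20, and 7 and 0 rhythmic on chow and high fat diet. With no filter 1 was lower at ZT16 and 0 rhythmic on high fat diet, and with the filter at the 50th percentile 15 were lower at ZT12. An offset of 1 gave 1 at ZT16 and an offset of 64 gave 13 at ZT12. Averaging over all probe sets of a gene gave 1 at ZT16, and under it Rps21 at ZT4 turned from -0.37 to 0.038.

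Array weights gave 16 at ZT0, 25 at ZT4, 4 lower and 1 higher at ZT8, 21 at ZT12, 8 at ZT16, 13 at ZT20 and 6 in the diet by time test. They also raised the calls over all tested genes in the average, from 1367 lower and 1570 higher to 1996 and 2263. Shares of all tested genes at single times were not counted under the alternatives, so moves in these counts may not be particular to the members. The variance prior with trend gave 13 at ZT12. An adjusted p under 0.01 gave 2 at ZT0, 2 at ZT4, 1 at ZT12, 0 at ZT16, and 1 and 0 rhythmic on chow and high fat diet. The F test of time means gave 7 on high fat diet. Without the 4 arrays of lowest weight, chosen after the data were seen, 1 was higher at ZT0, 15 lower at ZT12, 1 at ZT16 and 1 rhythmic on chow. The causes of these moves were not tested.

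Residuals of same-numbered arrays of different groups had a mean correlation of 0.01, with a lowest of -0.59, and 37.9% of the pairs over 0.1. On average the replicate numbers showed no pairing of samples. A link between some of the same-numbered arrays was not tested. With the replicate number as a block 45 members were lower in the average, 1 at ZT16 and 0 rhythmic on high fat diet.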
